A study of Mus musculus with 15 samples.

Results

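The ADAM and ADAMTS genes encode the metalloproteases with a disintegrin domain, their secreted relatives with thrombospondin repeats, and the ADAMTS-like proteins. Here they were the 58 protein-coding genes whose symbol is Adam, Adamts or Adamtsl followed by a number, out of 21970 protein-coding genes and 56748 genes listed. They comprised 34 Adam, 19 Adamts and 5 Adamtsl genes. The symbol alone decided which genes were members, but the family was chosen with earlier results of these data known. Their transcripts were measured by RNA sequencing of kidney and lung from male C57Bl/6 mice of wild-type genotype. In the kidney experiment the mice were 10 to 12 weeks old. WTK mice had received vehicle in place of folic acid. The labels name no antibody for them, so IgGK and WTK may differ in the IgG injections as well as in folic acid. IgGK and LepK mice had received a single injection of folic acid at 200 mg/kg, which injures the tubules and is followed by fibrosis. They were then given control IgG (IgGK) or LepAb (LepK) at 10 mg/kg every other day. The injections ended before the kidneys were collected on day 28. LepAb is a human monoclonal antibody that neutralizes leptin, the hormone secreted by fat cells. In the lung experiment the mice were 12 weeks old and had received bleomycin at 1.5 units/kg into the trachea. They were given control IgG (IgGL) or LepAb (LepL) at the same antibody dose. Here the injections went on until the lungs were collected on day 14. Lungs without bleomycin were not analysed here, so the lung data hold an antibody comparison and no injury comparison.

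Each of the 5 groups had 3 libraries, with total counts of 25913969 to 38924788. The labels do not say whether the libraries of a group came from separate mice, so the p-values measure the spread between libraries. The organ labels fit the markers. Proximal tubule markers (Lrp2, Slc34a1, Slc5a2, Cubn and Slc22a6) summed to 3087 to 14062 normalised CPM, that is read counts scaled to a common library size, in the kidney libraries and to 30.7 to 158 in the lung libraries. The 6 male germ cell markers summed to at most 1.26 CPM in any library. One lung library, IgGL replicate 1, lay nearer to the LepL libraries than the other IgGL libraries did for several genes described here, and the counts of members called in lung are therefore also given without it. Kidney and lung were normalised apart, so apart from this check of the organs CPM values are compared only within an organ.

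ADAM proteins sit in the cell membrane and release the extracellular parts of other membrane proteins, a step called shedding. ADAM10 cleaves Notch receptors and cadherins, and ADAM17 releases tumor necrosis factor and ligands of the epidermal growth factor receptor. ADAMTS proteins are secreted into the matrix, where they cleave proteoglycans such as versican and aggrecan, remove the propeptides of fibrillar procollagens, or act on cartilage oligomeric matrix protein (COMP), von Willebrand factor and fibrillin microfibrils. ADAM11, ADAM22 and ADAM23 lack catalytic activity and act as cell-surface binding proteins, and many other ADAM genes are used mainly in testis and epididymis. ADAMTS-like proteins carry the matrix-binding modules without a protease domain.

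The catalytic site of an active member binds zinc through 3 histidines and carries a conserved glutamate. Many members also have a glycine in this motif, which is not shared by all active ones. Coding sequences were taken from GENCODE M21 transcripts (GRCm38), and 57 of the 58 members were found there, Adam34l being the exception. The motif was read whole in 33 members. In 6 further members (Adamts1, Adamts4, Adamts8, Adamts9, Adamts15 and Adamts20) the histidine and glutamate codons were present and the glycine codon was not. It was absent from 18. The 33 coding bases that cover the motif are shown for the members whose transcripts the results turn on, to show how they differ there. Capitals mark the codons of the histidines, the glutamate and the glycine. Every window is exonic coding sequence, read 5′ to 3′ on the coding strand. The coordinates are those of its first and last base in GRCm38, and a span longer than 33 bases crosses an intron.
Adam12 (chr7:133961158-133961190, minus strand): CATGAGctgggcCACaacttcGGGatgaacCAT
Adam8 (chr7:139987893-139987925, minus strand): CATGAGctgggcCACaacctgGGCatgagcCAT
Adam19 (chr11:46125050-46125082, plus strand): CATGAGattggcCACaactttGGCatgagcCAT
Adam15 (chr3:89344780-89344812, minus strand): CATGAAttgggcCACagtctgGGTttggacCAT
Adam10 (chr9:70754296-70761585, plus strand): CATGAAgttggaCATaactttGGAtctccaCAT
Adam17 (chr12:21336732-21336764, minus strand): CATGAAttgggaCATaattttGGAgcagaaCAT
Adamts2 (chr11:50775403-50776134, plus strand): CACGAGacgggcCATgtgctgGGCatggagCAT
Adamts14 (chr10:61225465-61227123, minus strand): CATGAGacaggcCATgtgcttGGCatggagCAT
Adamts12 (chr15:11241529-11255564, plus strand): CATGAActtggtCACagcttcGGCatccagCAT
Adamts7 (chr9:90179456-90180640, plus strand): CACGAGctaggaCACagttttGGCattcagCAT
Adamts16 (chr13:70787149-70791812, minus strand): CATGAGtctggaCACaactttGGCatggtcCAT
Adamts1 (chr16:85799191-85799545, minus strand): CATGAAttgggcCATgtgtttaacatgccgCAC
Adamts4 (chr1:171253210-171253915, plus strand): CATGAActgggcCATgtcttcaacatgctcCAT
Adamts15 (chr9:30911255-30911690, minus strand): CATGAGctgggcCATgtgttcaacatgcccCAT
Adam23 (chr1:63547763-63547795, plus strand): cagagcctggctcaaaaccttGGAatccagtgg

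All 6 ADAM windows from Adam12 to Adam17 and the 5 ADAMTS windows from Adamts2 to Adamts16 keep the 5 codons. Adamts1, Adamts4 and Adamts15 keep 4 of them. Adam23, which has no catalytic activity, keeps only the glycine codon. Members of each kind appear in the results below.

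Levels between genes were compared as deposited FPKM values, which are scaled by gene length. The values of all 58 members summed to 83.7 ± 1.71 FPKM (mean ± SD, n = 3) in WTK, 121 ± 1.98 in IgGK and 99.9 ± 4.498 in LepK, and to 278 ± 16.7 in IgGL and 205 ± 14.5 in LepL. In vehicle kidney the most abundant member was Adam9, a widely expressed sheddase, at 24.4 ± 0.351 FPKM. Adam10 followed at 12.9 ± 0.362, Adam15 at 10.98 ± 0.689 and Adamts1, a versican-cleaving protease, at 6.68 ± 0.287, and no library of one of these 4 overlapped with the next. In IgGK the order was another one. Adamts1 led at 20.8 ± 0.738 FPKM, before Adam10 at 17.5 ± 0.345 and Adam9 at 14.5 ± 0.448, again without overlap between neighbours. In LepK the libraries of Adam9 (15.8 ± 1.35), Adamts1 (14.1 ± 1.82) and Adam10 (14.04 ± 0.0527) overlapped from one gene to the next, while all Adam9 libraries lay above all Adam10 libraries. In lung Adam9 was highest in both groups, at 49.4 ± 4.63 FPKM in IgGL and 38.4 ± 5.57 in LepL. In IgGL it overlapped with Adamts1 at 38.6 ± 7.75. Adamts2, which trims the amino end of fibrillar procollagens, was next after Adam10 and Adam15 in IgGL at 17.04 ± 1.79 FPKM and was at 0.499 ± 0.157 in vehicle kidney, but organ, injury and day differ together between those groups and cannot be told apart.

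**Figure D1:**
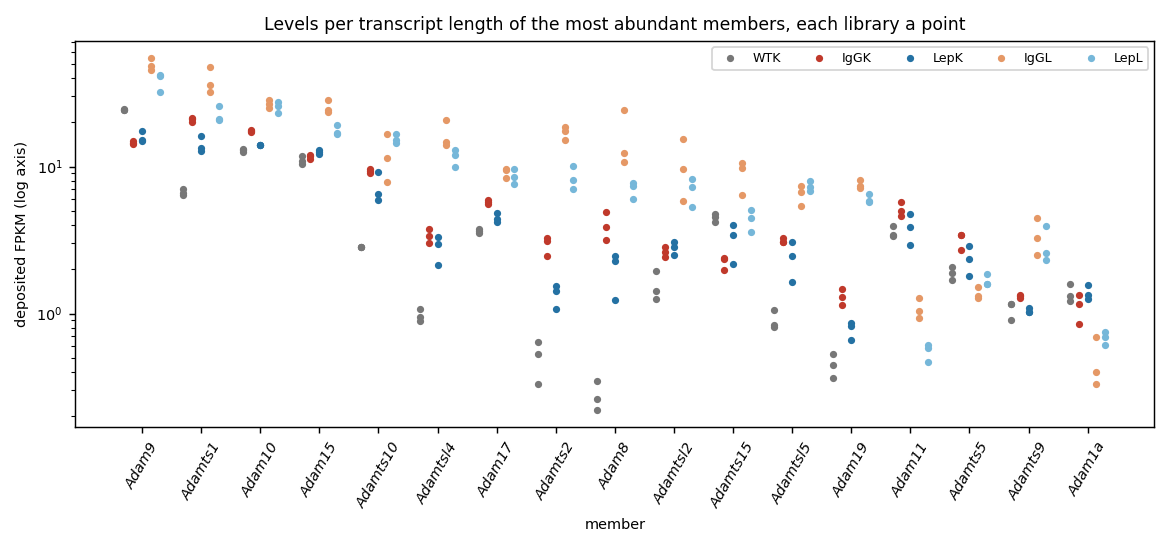
Deposited FPKM (log axis) of the 17 members that are among the 12 most abundant in at least one group, with 1 point per library and 1 color per group. Adam9, Adamts1, Adam10 and Adam15 hold the highest levels, and Adamts2 and Adam8 lie lower in vehicle kidney than in any other group.

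The other end of the family was silent or nearly so. Of the 22 members known mainly from the male reproductive tract, 6 passed the filter on low counts in kidney and 7 in lung. In all, 40 members were tested in kidney and 41 in lung, and 16 were tested in neither organ. Of those 16, Adam24, Adam25, Adam26a, Adam26b, Adam34, Adam34l, Adam39 and Adam6a had no count in any of the 15 libraries. The other 8 were Adam18, Adam2, Adam20, Adam21, Adam29, Adam30, Adam6b and Adamts18, with at most 18 counts in any library. Adamts16 was tested in kidney only, and Adam3 and Adamts19 in lung only. A member that passes the filter through the group where it is high is favored toward a difference, so the counts below refer to tested members and not to the family as a whole.

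The first comparison, IgGK against WTK, asks which members differ between folic acid-injured and vehicle kidney. A gene was called at an adjusted p under 0.05 and an absolute log2 fold change over 0.5. Of the 40 tested members, 23 were called higher, against 21.7% of all 19593 genes tested, and 4 were called lower, against 15.6%. The median log2 fold change of the members was 0.88, and that of all genes was 0.04. The libraries of the groups did not overlap in 26 members that were higher in IgGK, against 32.5% of all genes, and in 5 that were lower, against 30.1%. In whole-organ RNA, more transcript per cell and more cells of a type that carries it cannot be told apart.

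Among the 9 ADAM sheddases, 6 rose and 1 fell. Adam12, a sheddase found in mesenchymal cells and known from tissue repair, was at 2.95, 2.65 and 2.74 CPM in the WTK libraries and 24.5, 23.5 and 23.96 in the IgGK libraries. All IgGK values lay above all WTK values, and the log2 fold change was 3.11 ± 0.16 (adjusted p = 2.96e-08), standard error after the sign, or 8.63-fold. Adam8, a sheddase of leukocytes, was at 1.25, 1.46 and 1.95 CPM in WTK and 22.4, 28.4 and 18.4 in IgGK. It rose 14.7-fold, the largest change among the sheddases, with a log2 fold change of 3.88 ± 0.29 (adjusted p = 3.28e-07). Adam19 (log2 fold change 1.57 ± 0.18), Adam28 (2.497 ± 0.74), Adam33 (0.95 ± 0.25) and Adam17 (0.70 ± 0.07) also rose. Adam28 rested on 0 to 6 counts per WTK library and 14 to 35 per IgGK library, and its call was lost without IgGK replicate 3. Adam9 fell, from 124, 120.3 and 120.4 CPM to 73.1, 72.4 and 76.97, with a log2 fold change of -0.71 ± 0.07 (adjusted p = 2.45e-06). With library size alone as the scaling, Adam9 was no longer called.

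Adam10 and Adam17, the most studied sheddases, changed by smaller amounts. Adam17 was at 30.6, 31.4 and 32.3 CPM in WTK and 49.1, 50.96 and 52.98 in IgGK. Its reads cannot be told apart by strand from those of the overlapping gene Iah1. Adam10 was at 77.7, 74.1 and 78.01 CPM in WTK and 106, 109 and 105 in IgGK. Its log2 fold change of 0.48 ± 0.06 (adjusted p = 1.25e-05) passed the p threshold and stayed under the fold threshold. Adam15, at a similar level, was at 77.2, 80.7 and 86.9 CPM in WTK and 90.5, 89.5 and 86.5 in IgGK, and the groups overlapped.

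Among the members without catalytic activity, Adam23 went from 0.665, 0.592 and 0.505 CPM in WTK to 2.77, 4.06 and 3.38 in IgGK. It rose 5.78-fold, with a log2 fold change of 2.53 ± 0.34 (adjusted p = 4.04e-05). Adam11 was at 23.2, 26.9 and 23.6 CPM in WTK and 32.4, 40.3 and 35.3 in IgGK, a log2 fold change of 0.55 ± 0.15 (adjusted p = 0.00687) whose call was lost without IgGK replicate 2. Adam22 was not called (0.20 ± 0.16, adjusted p = 0.332). Of the 6 tested members of the reproductive tract, Adam5 was called higher and Adam1b lower. Adam5 had 0, 4 and 1 counts in the WTK libraries and 27, 30 and 12 in the IgGK libraries, which is 0, 0.158 and 0.0361 CPM in WTK and 0.8904, 0.857 and 0.347 CPM in IgGK. Its log2 fold change of 3.34 ± 0.98 (adjusted p = 0.0118) therefore rests on few reads and was lost without WTK replicate 3. Adam1b (-1.04 ± 0.37, adjusted p = 0.0296) overlaps Tmem116, and its call was lost without any 1 of 4 of the 6 libraries. Its window at the zinc motif is identical to that of Adam1a, and whether reads were split between the pair was not tested. Adam1a (-0.27 ± 0.20, adjusted p = 0.2801), Adam4 (-0.21 ± 0.42, adjusted p = 0.701), Adam7 (0.55 ± 0.70, adjusted p = 0.542) and Adam32 (0.19 ± 0.54, adjusted p = 0.796) were not called.

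Of the 7 ADAMTS proteoglycanases, 4 rose and 1 fell. Adamts1 rose from 42.6, 44.8 and 41.1 CPM in WTK to 137, 132 and 142 in IgGK, with a log2 fold change of 1.68 ± 0.09 (adjusted p = 4.03e-08), or 3.196-fold. Adamts4, an aggrecanase, was at 0.374, 0.395 and 0.144 CPM in WTK and 2.74, 1.89 and 1.71 in IgGK, with a log2 fold change of 2.79 ± 0.45 (adjusted p = 1.75e-04). Adamts8 (2.06 ± 0.64) and Adamts5 (0.80 ± 0.16) rose as well, and the call of Adamts8 was lost without WTK replicate 1 or IgGK replicate 2. Adamts15 went the other way. It fell from 52.6, 59.3 and 56.5 CPM to 30.5, 25.4 and 30.6, with a log2 fold change of -0.96 ± 0.17 (adjusted p = 3.17e-04). Adamts9 (0.31 ± 0.10, adjusted p = 0.0185) passed the p threshold only, and Adamts20 (-1.0 ± 0.72, adjusted p = 0.263) was not called.

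The procollagen N-proteinases split. Adamts2 was at 7.23, 3.71 and 5.95 CPM in WTK and 35.7, 37.95 and 28.8 in IgGK, and rose 6.07-fold with a log2 fold change of 2.602 ± 0.21 (adjusted p = 6.14e-07). Adamts14 was at 4.24, 3.95 and 6.06 CPM in WTK and 2.704, 2.66 and 3.61 in IgGK, and fell with a log2 fold change of -0.67 ± 0.25 (adjusted p = 0.0374). That call was lost without WTK replicate 3, IgGK replicate 1 or IgGK replicate 2, and Adamts3 was not called (0.94 ± 0.57, adjusted p = 0.187). Both COMP-cleaving members rose. Adamts12 went from 0.997, 0.632 and 0.974 CPM to 6.07, 6.54 and 5.26, with a log2 fold change of 2.77 ± 0.29 (adjusted p = 4.98e-06). Adamts7, which overlaps Tbc1d2b, had one of 1.93 ± 0.16 (adjusted p = 7.17e-07).

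Among the remaining ADAMTS members, Adamts17 had the largest change of the family. It was at 0.0831, 0.197 and 0.108 CPM in WTK, from 2 to 5 counts per library, and at 3.13, 2.29 and 2.25 in IgGK, from 78 to 95 counts. The log2 fold change was 4.26 ± 0.61 (adjusted p = 7.12e-05). Adamts16 rose from 3.95, 3.87 and 3.64 CPM to 13.3, 12.4 and 13.4, with a log2 fold change of 1.77 ± 0.14 (adjusted p = 5.15e-07). Adamts10, which binds fibrillin, rose 3.39-fold (1.76 ± 0.13, adjusted p = 3.44e-07), whereas Adamts6 (0.44 ± 0.21, adjusted p = 0.1003) and Adamts13, which cleaves von Willebrand factor (0.82 ± 0.63, adjusted p = 0.302), were not called. Of the 5 ADAMTS-like genes, 4 rose, with log2 fold changes of 1.84 ± 0.17 for Adamtsl4, 1.84 ± 0.20 for Adamtsl5, 1.27 ± 0.19 for Adamtsl1 and 0.82 ± 0.14 for Adamtsl2. Adamtsl3 was near 0 (0.01 ± 0.66, adjusted p = 0.989).

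Markers of other cells moved with these genes. The 8 fibroblast and myofibroblast markers summed to 201 to 252 CPM in WTK and 1057 to 1208 in IgGK, and 8 of 8 were called higher. The 8 macrophage markers summed to 155 to 182 CPM in WTK and 1478 to 1858 in IgGK, with 7 of 8 called higher. The 7 neutrophil markers stayed low, at 2.01 to 2.24 and 16.9 to 25.5 CPM, with Ly6g at 0 in every WTK and IgGK library, and 4 of the 4 tested were called higher. The proximal tubule markers summed to 13223 to 14062 CPM in WTK and 3087 to 4115 in IgGK, with 5 of 5 called lower. The 5 T cell markers summed to 5.69 to 7.72 CPM in WTK and 23.8 to 44.6 in IgGK, with 5 of 5 called higher, and the 4 adipocyte markers to 82.6 to 166 and 337 to 552 CPM, with 4 of 4 called higher. The part of these cell types in the differences of the ADAM and ADAMTS genes was not tested.

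**Figure D2:**
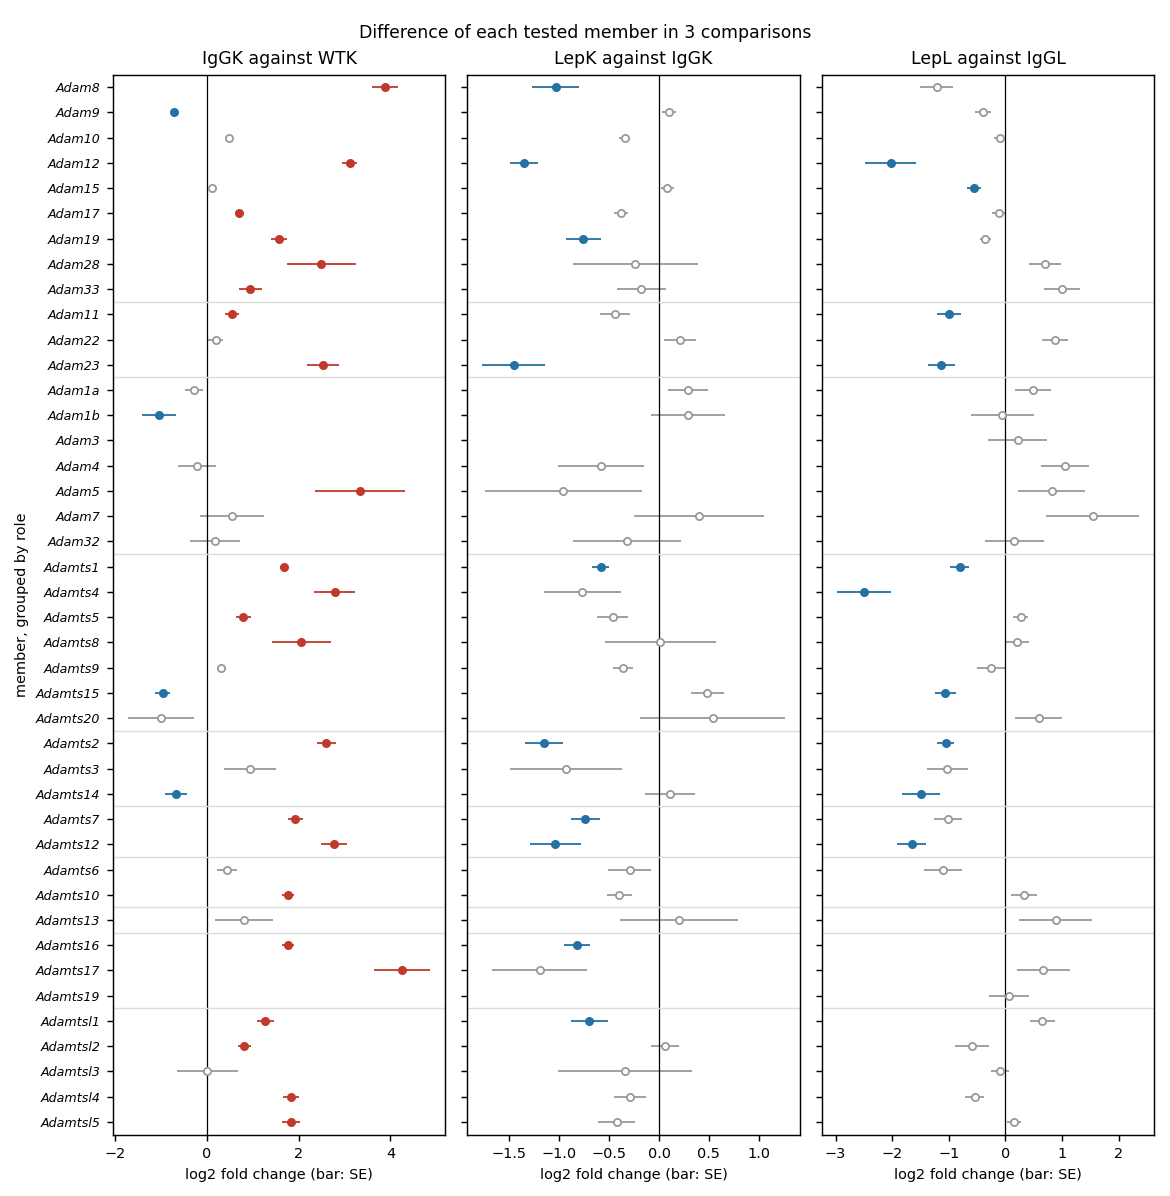
Log2 fold change (x axes, with different ranges, bars for the standard error) of each tested member, grouped by role, in IgGK against WTK, LepK against IgGK and LepL against IgGL. Filled red points are called higher (23, 0 and 0), filled blue points called lower (4, 10 and 10), and open gray points not called.

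The second comparison, LepK against IgGK, asks how leptin neutralization changed the transcripts in injured kidney. It shares the IgGK libraries with the first, so the values of each are given side by side without a test between them. Of the 40 tested members, 10 were called lower, against 5.99% of all genes tested, and 0 were called higher, against 4.38%. By DESeq2 the counts were 10 and 0 as well, and 2332 of all 19593 genes were called in either direction. In edgeR's quasi-likelihood test 19 of the 40 had an unadjusted p under 0.05, as did 6441 of all 19593 genes. The median log2 fold change was -0.37 over the members and -0.01 over all genes. In 17 members every LepK library lay below every IgGK library, against 19.5% of all genes, and in 2 above, against 17.8%.

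Among the 9 sheddases 3 fell. Adam12 was at 7.28, 10.3 and 10.6 CPM in LepK, below the 24.5, 23.5 and 23.96 of IgGK and above the 2.95, 2.65 and 2.74 of WTK, with no overlap between any of the 3 groups. Its log2 fold change was -1.35 ± 0.14 (adjusted p = 1.33e-04), and between -1.45 and -1.19 when any 1 library was left out. Adam8 was at 6.95, 12.8 and 13.99 CPM in LepK against 22.4, 28.4 and 18.4 in IgGK, a log2 fold change of -1.04 ± 0.24 (adjusted p = 0.00901). Adam19, known from heart development, fell with one of -0.76 ± 0.17 (adjusted p = 0.00942). Adam10 and Adam17 passed the p threshold but not the fold threshold. Adam10 was at 83.6, 84.6 and 84.3 CPM in LepK, all below the IgGK libraries, with a log2 fold change of -0.34 ± 0.06 (adjusted p = 0.001399). Adam17 was at 36.5, 41.97 and 38.7 CPM, also all below IgGK, with one of -0.39 ± 0.07 (adjusted p = 0.00274). Adam9 (0.10 ± 0.07, adjusted p = 0.354), Adam15 (0.08 ± 0.06, adjusted p = 0.396), Adam28 (-0.24 ± 0.63, adjusted p = 0.8299) and Adam33 (-0.18 ± 0.25, adjusted p = 0.668) were not called.

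Adam23 had the largest decrease of any tested member. It was at 0.856, 1.64 and 1.22 CPM in LepK and 2.77, 4.06 and 3.38 in IgGK, without overlap, with a log2 fold change of -1.46 ± 0.31 (adjusted p = 0.00661). The other non-catalytic members were not called, Adam11 at 20.1, 26.8 and 32.7 CPM (-0.44 ± 0.15, adjusted p = 0.0515) and Adam22 with a log2 fold change of 0.21 ± 0.16 (adjusted p = 0.415). None of the 6 tested reproductive tract members was called.

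In the ADAMTS group 5 members fell, and 1 ADAMTS-like gene did. Adamts2 was at 12.2, 17.6 and 16.2 CPM in LepK against 35.7, 37.95 and 28.8 in IgGK, a log2 fold change of -1.16 ± 0.19 (adjusted p = 0.00156). Adamts12 was at 2.01, 3.08 and 3.62 against 6.07, 6.54 and 5.26 CPM, a log2 fold change of -1.04 ± 0.26 (adjusted p = 0.0145), and its call was lost without IgGK replicate 2 or LepK replicate 1. Adamts16 was at 6.55, 7.61 and 7.86 against 13.3, 12.4 and 13.4 CPM, a log2 fold change of -0.82 ± 0.13 (adjusted p = 0.00126). The libraries of these 3 genes did not overlap between the groups. Adamts1, the most abundant of them, was at 82.04, 87.2 and 105 CPM in LepK against 137, 132 and 142 in IgGK, a log2 fold change of -0.58 ± 0.09 (adjusted p = 8.41e-04). Adamts7 fell with a log2 fold change of -0.74 ± 0.15 (adjusted p = 0.004498), so that both COMP-cleaving members were called. The ADAMTS-like gene was Adamtsl1, at 7.703, 8.85 and 8.49 CPM in LepK and 13.4, 11.3 and 15.9 in IgGK (-0.70 ± 0.19, adjusted p = 0.01905), whose call was lost without IgGK replicate 1, IgGK replicate 3 or LepK replicate 1.

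Several large differences did not pass. Adamts17 was at 0.395, 1.94 and 0.997 CPM in LepK, from 12, 58 and 27 counts, and its log2 fold change of -1.197 ± 0.48 (adjusted p = 0.0989) missed the threshold although the groups did not overlap. Adamts4 was at 0.988, 1.64 and 1.07 CPM, with a log2 fold change of -0.77 ± 0.39 (adjusted p = 0.191). Adam5 had one of -0.96 ± 0.79 (adjusted p = 0.437). Adamts15 and Adamts14, which were lower in IgGK than in WTK, were at 50.1, 27.6 and 43.2 and at 3.69, 2.58 and 3.43 CPM in LepK. Adamts15 stood apart between its own replicates, with LepK replicate 2 inside the IgGK range, and its log2 fold change was 0.48 ± 0.17 (adjusted p = 0.0585). Without LepK replicate 2 it was called higher, the only member called so in any fit that left out a library, and the count of lower calls was 14. In that fit 2260 of all 20242 genes were called in either direction. Adamts14 had a log2 fold change of 0.11 ± 0.25 (adjusted p = 0.798). Adamts5 (-0.47 ± 0.15, adjusted p = 0.0511), Adamts8 (0.01 ± 0.56, adjusted p = 0.9896), Adamts20 (0.54 ± 0.72, adjusted p = 0.658), Adamts3 (-0.93 ± 0.56, adjusted p = 0.279) and Adamts6 (-0.29 ± 0.21, adjusted p = 0.374) were not called, while Adamts9 (-0.36 ± 0.10, adjusted p = 0.0252) and Adamts10 (-0.40 ± 0.12, adjusted p = 0.0405) passed the p threshold only. Nor were calls made for Adamtsl2 (0.06 ± 0.14, adjusted p = 0.798), Adamtsl3 (-0.34 ± 0.67, adjusted p = 0.772), Adamtsl4 (-0.29 ± 0.16, adjusted p = 0.231) and Adamtsl5 (-0.42 ± 0.18, adjusted p = 0.132).

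By zinc motif, 7 of the 22 tested members with the whole motif were called lower, 1 of the 6 without the glycine codon and 2 of the 12 without the motif. In lung, in LepL against IgGL, the counts called lower were 5 of 22, 3 of 6 and 2 of 13 in the same order. The difference between these classes was not tested. With library size alone as the scaling, 17 members were called lower, and 2593 of all 19593 genes were called in either direction. The same marker lists moved again. The fibroblast markers summed to 458 to 709.9 CPM in LepK, with 6 of 8 called lower than in IgGK, the macrophage markers to 516 to 769, with 7 of 8 called lower, and the neutrophil markers to 6.85 to 9.56, with 4 of the 4 tested called lower. Proximal tubule markers summed to 5582 to 7335 CPM, with 4 of 5 called higher. The 5 injured tubule markers, all called higher in IgGK, were all called lower with LepAb. T cell markers summed to 19.2 to 27.6 CPM in LepK and adipocyte markers to 168 to 330.3, with 1 of 5 and 1 of 4 called lower. The part of these cell types in the differences was not tested.

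**Figure D3:**
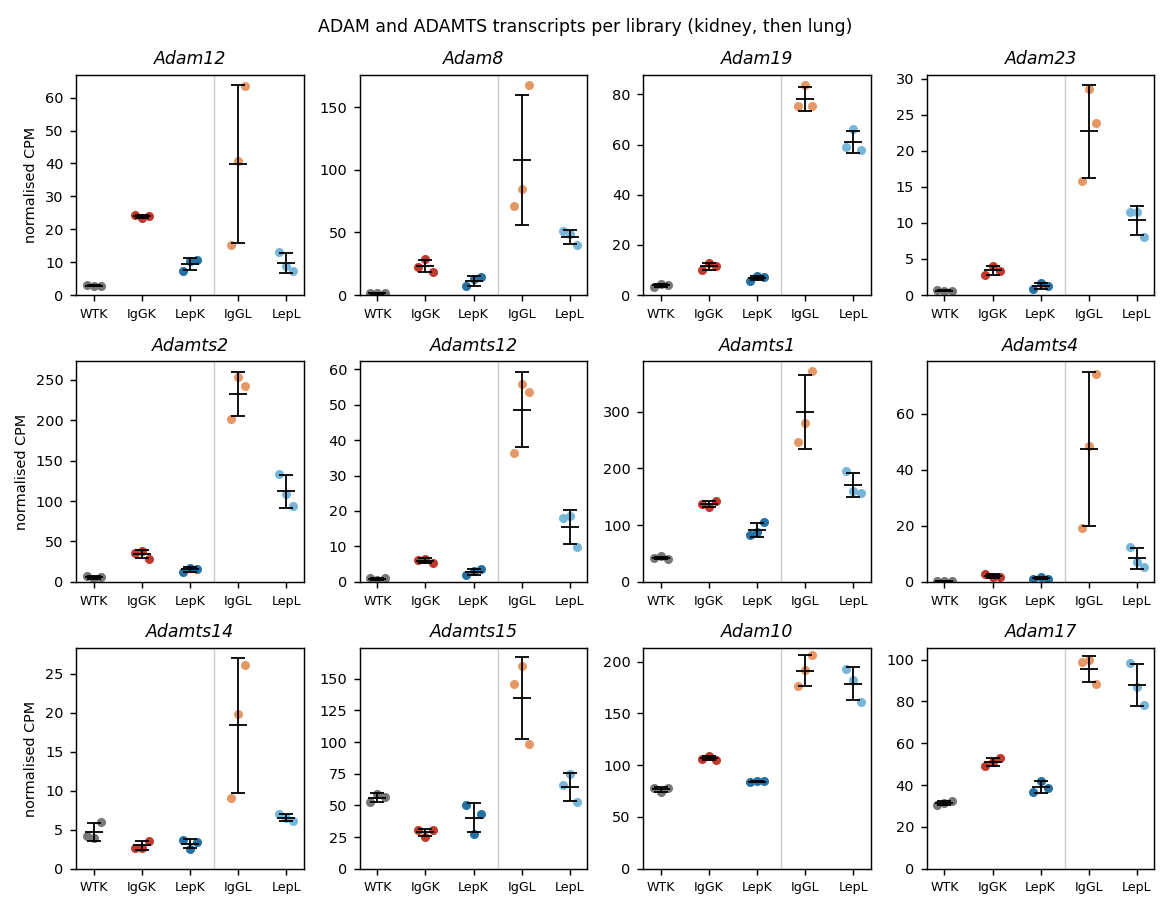
Normalised CPM of 12 members in each library (points), with the mean and SD of each group (horizontal marks and bars), kidney left and lung right of the gray line, on linear axes from 0. Adam12, Adam8, Adam23, Adamts2 and Adamts12 are highest in IgGK among kidney groups, LepK lies between IgGK and WTK, and all LepL points lie below all IgGL points except for Adam10 and Adam17.

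LepK was also set against WTK directly, a comparison that shares libraries with both others. It shows how far the treated, injured kidneys still differed from vehicle kidneys. Here 19 of 40 members were called higher, against 15.2% of all genes tested, and 1 was called lower, against 7.3%. All 10 members that were called lower in LepK than in IgGK were called higher in LepK than in WTK, with log2 fold changes from 0.58 (Adamtsl1) to 2.85 (Adam8). The matching share of all 1174 genes called lower in LepK than in IgGK was not counted. Whether this is particular to the members is therefore not known. Adam12 remained 3.38-fold higher (1.76 ± 0.16, adjusted p = 7.47e-06), Adamts2 2.73-fold (1.45 ± 0.21, adjusted p = 2.02e-04) and Adamts1 2.13-fold (1.09 ± 0.09, adjusted p = 4.13e-06). The calls of Adam23 (1.07 ± 0.35, adjusted p = 0.0265) and Adamtsl1 (0.58 ± 0.19, adjusted p = 0.0314) were each lost without any 1 of 4 libraries. Adamts17 (3.06 ± 0.62, adjusted p = 0.00206), Adamts8 (2.08 ± 0.64, adjusted p = 0.0214), Adam28 (2.26 ± 0.75, adjusted p = 0.0313) and Adamts4 (2.02 ± 0.45, adjusted p = 0.00364) were also higher, as were Adamtsl2, Adamtsl4, Adamtsl5, Adamts10 and Adam33 with log2 fold changes from 0.77 to 1.55. Adam33 lost its call without any 1 of 4 libraries, Adam28 without any 1 of 4 and Adamts8 without any 1 of 3. Adam9 was the member called lower, at 86.8, 76.6 and 74.7 CPM in LepK and 124, 120.3 and 120.4 in WTK (-0.61 ± 0.07, adjusted p = 3.35e-05). Adam10 had a log2 fold change of 0.14 ± 0.06 (adjusted p = 0.0752) and was not called. Adam17 (0.31 ± 0.07, adjusted p = 0.004396), Adam15 (0.21 ± 0.06, adjusted p = 0.0212) and Adamts15 (-0.48 ± 0.16, adjusted p = 0.0353) passed the p threshold only. The other uncalled relatives of called members were Adam11, Adam22, Adamts3, Adamts5, Adamts6, Adamts9, Adamts14, Adamts20 and Adamtsl3, with log2 fold changes from -0.56 to 0.41.

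The third comparison, LepL against IgGL, puts the same antibody question to bleomycin-injured lung. Of the 41 tested members, 10 were called lower, against 2.36% of all 19617 genes tested, and 0 were called higher, against 1.78%. DESeq2 called 14 lower and 3 higher, and 2350 of all 19617 genes in either direction. In edgeR's quasi-likelihood test 22 of the 41 had an unadjusted p under 0.05, as did 5357 of all 19617 genes. The median log2 fold change was -0.10 over the members and 0.00 over all genes, and 23 of the 41 were below 0. In 17 members each LepL library lay below each IgGL library, against 17.3% of all genes, and in 6 above, against 16%. In all 10 called, the groups were apart in this way. These calls hung on single libraries. Without IgGL replicate 1, 14 members were called lower and 7 higher, while 3539 of all 20435 genes tested were called in either direction. With LepL replicate 1 left out, only Adamts2 was called among the members, and 22 of all 20508 genes tested were. With any of the other 4 libraries left out, 0 members were called. In those 4 fits 0 to 4 of all genes were called, while 3401 to 4343 had an unadjusted p under 0.05. The direction of the 10 was the same in all 6 of those fits.

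Adamts4 had the largest decrease. It was at 19.3, 48.6 and 74.4 CPM in the IgGL libraries and 12.5, 7.19 and 5.44 in the LepL libraries, with a log2 fold change of -2.504 ± 0.47 (adjusted p = 0.0354). IgGL replicate 1 lay closer to the LepL libraries than to the other IgGL libraries. The other proteoglycanases called were Adamts15 and Adamts1. Adamts15 was at 146, 160.1 and 98.7 CPM in IgGL and 65.9, 75.1 and 53.03 in LepL, with a log2 fold change of -1.06 ± 0.19 (adjusted p = 0.0337). Adamts1 was at 247, 279.7 and 372 in IgGL and 195, 160.4 and 157 in LepL, with a log2 fold change of -0.81 ± 0.17 (adjusted p = 0.0391). So 3 of the 7 proteoglycanases fell. Adamts5 (0.27 ± 0.13, adjusted p = 0.212), Adamts8 (0.20 ± 0.21, adjusted p = 0.571), Adamts9 (-0.25 ± 0.25, adjusted p = 0.547) and Adamts20 (0.58 ± 0.42, adjusted p = 0.407) were not called.

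Both Adamts2 and Adamts14 fell among the procollagen N-proteinases. Adamts2 was at 202, 254 and 242 CPM in IgGL and 133, 109 and 93.5 in LepL, with a log2 fold change of -1.06 ± 0.15 (adjusted p = 0.0327). Adamts14 was at 9.06, 19.9 and 26.2 in IgGL and 7.02, 6.46 and 6.12 in LepL, with a log2 fold change of -1.49 ± 0.34 (adjusted p = 0.0457). For Adamts14 the low IgGL value is again that of replicate 1. Adamts3 had a log2 fold change of -1.02 ± 0.35 (adjusted p = 0.1098) and was not called. Adamts12 was at 36.4, 55.9 and 53.5 CPM in IgGL and 17.9, 18.5 and 9.82 in LepL, with a log2 fold change of -1.66 ± 0.26 (adjusted p = 0.0327). Its COMP-cleaving relative Adamts7 missed the threshold (-1.01 ± 0.25, adjusted p = 0.0543).

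Of the sheddases 2 were called. Adam12 was at 15.3, 40.8 and 63.5 CPM in IgGL and 13.2, 8.704 and 7.43 in LepL. The spread within IgGL was wide, and its log2 fold change was -2.03 ± 0.45 (adjusted p = 0.0444), between -2.42 and -1.53 when any 1 library was left out. Adam15, an abundant sheddase, was at 208, 217 and 258 CPM in IgGL and 169, 148 and 147 in LepL, with a log2 fold change of -0.56 ± 0.12 (adjusted p = 0.0413). Adam8 was at 71.4, 84.3 and 168 CPM in IgGL and 50.7, 48.7 and 39.7 in LepL and missed the threshold narrowly (-1.22 ± 0.29, adjusted p = 0.0502). Adam10 was at 176, 192 and 206 CPM in IgGL and 192, 183 and 161 in LepL (-0.10 ± 0.11, adjusted p = 0.609), and Adam17 at 98.7, 99.7 and 88.2 in IgGL and 98.4, 87.1 and 78.2 in LepL (-0.12 ± 0.11, adjusted p = 0.525). The libraries of both overlapped between the groups. Adam9 (-0.40 ± 0.14, adjusted p = 0.1098), Adam19 (-0.36 ± 0.10, adjusted p = 0.0679), Adam28 (0.69 ± 0.28, adjusted p = 0.157) and Adam33 (0.996 ± 0.32, adjusted p = 0.0921) were not called.

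Of the 3 non-catalytic members 2 fell. Adam23 was at 15.8, 28.5 and 23.8 CPM in IgGL and 11.5, 11.5 and 8.04 in LepL, with a log2 fold change of -1.13 ± 0.24 (adjusted p = 0.040). Adam11 was at 10.4, 8.58 and 7.78 CPM in IgGL and 4.67, 4.99 and 3.75 in LepL, with a log2 fold change of -0.997 ± 0.21 (adjusted p = 0.0413). Adam22 lay on the other side, at 9.09, 6.89 and 6.78 CPM in IgGL and 10.7, 13.00 and 18.04 in LepL, and was not called (0.88 ± 0.23, adjusted p = 0.06098). Among the abundant members, Adamts10 (0.33 ± 0.22, adjusted p = 0.376), Adamtsl2 (-0.60 ± 0.30, adjusted p = 0.233), Adamtsl4 (-0.55 ± 0.17, adjusted p = 0.0896) and Adamtsl5 (0.15 ± 0.13, adjusted p = 0.481) were not called. Adamts17 was at 6.703, 2.19 and 1.63 CPM in IgGL and 6.302, 5.55 and 4.96 in LepL, Adam5 at 0.803, 0.778 and 0.1995 in IgGL and 1.08, 1.49 and 0.605 in LepL, and neither was called. Adamts16, tested in kidney only, was at 0.332, 0 and 0.732 CPM in IgGL and 0.229, 0.117 and 0.101 in LepL.

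In lung, too, markers of other cells differed between the groups. The fibroblast markers summed to 5561 to 6271 CPM in IgGL and 2464 to 3332 in LepL, with 5 of 8 called lower. The largest parts of these sums were Col1a1 (mean 2244 CPM in IgGL and 971 in LepL) and Col1a2 (2113 and 1040). Dcn alone had a higher mean in LepL, at 196 CPM against 176 in IgGL. The neutrophil markers summed to 150.1 to 378 and 57.1 to 88.9 CPM, with 4 of the 6 tested called lower. Of the 8 macrophage markers 3 were called lower, while their summed level, most of it Lyz2, was 3408 to 6314 CPM in IgGL and 7733 to 7978 in LepL. Mouse alveolar type 2 cells also make Lyz2. The alveolar type 2 markers summed to 6373 to 11813 CPM in IgGL and 17100.5 to 23377 in LepL, with 3 of 5 called higher. The adipocyte markers summed to 40.1 to 88.3 CPM in IgGL and 132 to 164 in LepL, with 2 of 4 called higher, and the T cell markers to 11.8 to 33.99 and 25.03 to 51.2 CPM, with 0 of 5 called. The part of these cells in the differences of the members was not tested.

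Set side by side, 39 members were tested in both organs. Adam12, Adam23, Adamts1, Adamts2 and Adamts12 were called lower with LepAb in both, which is 5 of the 9 called in kidney and tested in lung, and 5 of the 10 called in lung. Of all 17735 genes tested in both organs, 145 were called lower in both, which is 12.8% of the 1133 called lower in kidney and 33.2% of the 437 called lower in lung. The 2 comparisons share no library, and the difference between these shares and those of the members was not tested. Adam8, Adam19, Adamts7, Adamts16 and Adamtsl1 were called in kidney only, and Adam11, Adam15, Adamts4, Adamts14 and Adamts15 in lung only. A call in one organ alone does not show that the organs differ, so the difference of the antibody effects was tested itself, in a fit of the 12 libraries from injured organs. In that fit 3 of 44 members had a lower effect in lung, against 3.51% of 21488 genes, and 1 had a higher effect, against 3.62%. These counts rest on 4 genes, or 6.82% and 2.27% of the members tested. Adam15 had a difference of -0.67 ± 0.13 (adjusted p = 0.0174) on the log2 scale, Adamts14 one of -1.63 ± 0.44 (adjusted p = 0.0434) and Adamts15 one of -1.58 ± 0.31 (adjusted p = 0.0162). Adamts15 was at 30.5, 25.4 and 30.6 CPM in IgGK and 50.1, 27.6 and 43.2 in LepK, while in lung all LepL values lay below IgGL. Adamtsl1 had a difference of 1.32 ± 0.29 (adjusted p = 0.02202), being lower with LepAb in kidney and at 20.6, 16.2 and 10.5 CPM in IgGL and 23.7, 24.4 and 26.2 in LepL. The call of Adamts14 was lost without any 1 of 10 of the 12 libraries and that of Adamtsl1 without any 1 of 4, whereas Adamts15 kept its call throughout and Adam15 lost it without LepL replicate 3 alone. For Adam8 (-0.21 ± 0.42, adjusted p = 0.814), Adam19 (0.37 ± 0.17, adjusted p = 0.183), Adamts4 (-1.77 ± 0.64, adjusted p = 0.108) and Adam11 (-0.59 ± 0.25, adjusted p = 0.162) no difference between the organs was called.

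**Figure D4:**
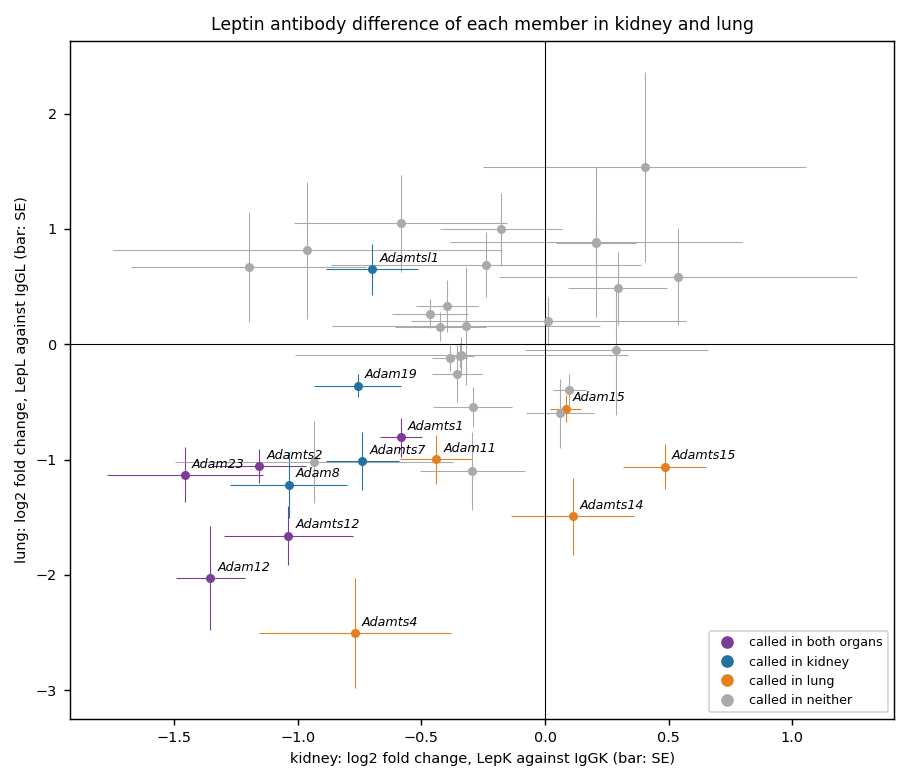
Log2 fold change with LepAb in kidney (x axis, LepK against IgGK) and in lung (y axis, LepL against IgGL) of the 39 members tested in both organs, with standard errors as bars. The 5 members called in both (purple) lie in the lower left, the 3 lung-only members Adam15, Adamts14 and Adamts15 lie right of 0 on the kidney axis, and Adamtsl1 is called in kidney with a positive value in lung.

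The inhibitors and substrates of the family were read from lists. TIMP proteins are the natural inhibitors of metalloproteases, TIMP3 being the main one for ADAM17 and the aggrecanases. Of the 6 inhibitor genes tested, Timp1 and Timp2 rose and Timp3 fell in IgGK against WTK. Timp3 was at 1029.7, 982 and 927 CPM in WTK and 331, 269 and 303 in IgGK, a log2 fold change of -1.703 ± 0.12 (adjusted p = 2.45e-07). It was at 450.0, 319 and 344 in LepK and was not called against IgGK (0.30 ± 0.12, adjusted p = 0.0943). Timp1 was at 0.872, 0.513 and 0.793 CPM in WTK, 23.9, 30.3 and 22.5 in IgGK and 6.22, 12.1 and 12.6 in LepK, with log2 fold changes of 5.13 ± 0.30 (adjusted p = 7.27e-08) and, for the antibody, -1.32 ± 0.23 (adjusted p = 0.00189). In lung Timp1 was at 208, 411 and 911 CPM in IgGL and 120.3, 113 and 71.2 in LepL (-2.33 ± 0.47, adjusted p = 0.0387). Timp2 was not called with LepAb in kidney, where it passed the p threshold only (-0.50 ± 0.15, adjusted p = 0.02999), or in lung (-0.09 ± 0.16, adjusted p = 0.761), and Timp4, Reck and Papln were called in none of the 3 comparisons.

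Of the 18 genes for ADAMTS substrates and the proteins they process, 14 were tested in kidney. In IgGK against WTK 10 rose and 2 fell, with a median log2 fold change of 2.04. With LepAb 8 were called lower than in IgGK and 1, Reln, higher, and in lung 8 of the 17 tested were called lower. Of the 5 fibrillar procollagen genes listed, Col1a1, Col1a2, Col3a1 and Col5a1 were called in the same directions as Adamts2 in all 3 comparisons. Col2a1 was not tested in kidney and was not called in lung (0.23 ± 0.49, adjusted p = 0.8004). Col1a1 had log2 fold changes of 3.88 ± 0.23 (adjusted p = 7.86e-08) in IgGK against WTK, -1.24 ± 0.21 (adjusted p = 0.001597) in LepK against IgGK and -1.21 ± 0.20 (adjusted p = 0.0327) in LepL against IgGL. Col3a1 had, in the same order, 3.91 ± 0.21 (adjusted p = 4.12e-08), -1.52 ± 0.19 (adjusted p = 3.59e-04) and -0.99 ± 0.17 (adjusted p = 0.0327). Fbn1, the fibrillin that ADAMTS10 binds, had 2.47 ± 0.11 (adjusted p = 1.41e-08), -1.34 ± 0.10 (adjusted p = 5.62e-05) and -1.34 ± 0.19 (adjusted p = 0.0327), although Adamts10 itself was not called with LepAb in either organ. Vcan, the versican cleaved by ADAMTS1 and ADAMTS4, rose in IgGK (0.90 ± 0.35, adjusted p = 0.0476) and was not called with LepAb in kidney (-0.89 ± 0.35, adjusted p = 0.0976) or lung (-1.797 ± 0.47, adjusted p = 0.0608). In lung it was at 37.3, 78.5 and 178 CPM in IgGL and 34.9, 26.00 and 23.7 in LepL, with IgGL replicate 1 again near the LepL libraries. Comp, the namesake substrate of ADAMTS7 and ADAMTS12, was called in none of the 3 comparisons, with log2 fold changes of 0.15 ± 0.51, 0.66 ± 0.50 and -0.78 ± 0.49.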

How the data were processed

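The authors deposited read counts per gene from poly(A) non-directional libraries. The labels name GRCm39, DESeq2 and DESeq, and the aligner is not given in the sources used here. The deposited FPKM values are scaled by gene length and, judging from the values, by size factors instead of library totals. They served only for levels between genes. The authors' group means, fold changes and p-values were not used.

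Counts were tested in R 4.3.3 with edgeR 4.0.16 (TMM, filterByExpr with a minimum count of 10 and minimum total of 15, glmQLFit, glmQLFTest), in fits of 9 kidney libraries, 6 lung libraries and, for the organ difference, 12 libraries from injured organs, where a call needed an adjusted p under 0.05 only. Benjamini-Hochberg adjustment covered all genes tested. Standard errors are the log2 fold change over the square root of F. Alternatives were other scalings, DESeq2 1.42.0, other filters and thresholds, a replicate block, other sets of libraries and each library left out. The procedure was also run on simulated counts with the same spread set for every gene. That run does not measure how stable the calls are in these libraries. Replicates differed by 7.15 to 98.6 in chi-square per gene, so none was a copy of another.

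Members, role groups, partner lists and markers were chosen with earlier results of these data known. Every called member is named, as are uncalled members that are among the 12 most abundant in an organ or share a role with a called one. Values in each library are given for members called with LepAb in both organs, for the 6 largest called changes in each kidney comparison of neighbouring groups, for all called in lung, and for Adam10 and Adam17.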

Additional observations from a re-analysis of the deposited data

Results flagged for a closer look

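The outlier test needs groups of 4 or more libraries and was not run on these groups of 3. By the interaction term of the 12-library edgeR fit, 4 of 44 members were called different in antibody effect between lung and kidney. Of these, 3 were lower in lung (6.82%, against 3.51% of all genes tested) and 1 was higher (2.27%, against 3.62%). Adamts14 kept its call in 2 of the 12 fits that left out a library, and Adamtsl1 in 8. The lung effect minus the kidney effect was -0.67 ± 0.13 on the log2 scale for Adam15, -1.63 ± 0.44 for Adamts14, -1.58 ± 0.31 for Adamts15 and 1.32 ± 0.29 for Adamtsl1. Organ, injury, course of the antibody injections and day differ together between the experiments and cannot be told apart. Adam15 was at 90.5, 89.5 and 86.5 CPM in IgGK and 96.8, 94.2 and 91.3 in LepK, so the kidney libraries with LepAb were slightly above those without, and the lung libraries were below. With library size alone as the scaling, Adam15 and Adamts14 were no longer called.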

How the results depend on the processing

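All called members kept their direction under every alternative in which they were tested. RLE scaling, a mean of at least 1 CPM and a fit of the 2 groups alone left every count within 1.5 times of its value. Library size alone moved the median log2 fold change of all genes to 0.48 (IgGK against WTK), -0.19 (LepK against IgGK) and 0.29 (LepK against WTK). Under it, 1 member was called lower in IgGK against WTK (Adamts15), 17 in LepK against IgGK and 0 in LepK against WTK. Of all 19593 genes, 8981, 2593 and 5294 were then called in either direction in these 3 comparisons. With this scaling 1 member had a lower and 3 a higher antibody effect in lung than in kidney, and 2217 of all 21488 genes were called for that difference. At a log2 threshold of 1, 1, 5 and 0 members were called lower in IgGK against WTK, LepK against IgGK and LepK against WTK. Calls over all genes at that threshold are not given here. Without a filter on low counts, 2 were called lower in IgGK against WTK, 3 higher in LepL against IgGL, and 6 had a lower and 5 a higher effect in lung. DESeq2 and the 12-library fit each called 3 higher in LepL against IgGL, and DESeq2 gave 2 higher effects in lung. Over all genes, LepL against IgGL gave 2688 calls of 35071 without the filter and 2350 of 19617 by DESeq2. The 12-library fit gave 2067 of 21488. Without the filter, IgGK against WTK gave 7639 calls of 32940 genes and the organ difference 2659 of 37345. By DESeq2 the organ difference gave 2978 of 21488. Leaving out 1 library gave 2 to 4 lower in IgGK against WTK and 0 to 1 higher in LepK against IgGK. It gave 1 to 2 lower in LepK against WTK, and 0 to 14 lower and 0 to 7 higher in LepL against IgGL. For the organ difference it gave 1 to 7 lower and 0 to 4 higher effects in lung. The same fits called 6591 to 7187 of all genes in IgGK against WTK and 1303 to 2260 in LepK against IgGK. They called 3647 to 4951 in LepK against WTK, 0 to 3539 in LepL against IgGL and 352 to 3763 for the organ difference. The cause was not tested.

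Whether equal replicate numbers mark paired samples cannot be settled from 3 libraries per group. Correlations of same-numbered deviations were 0.07, -0.04 and -0.03 (IgGK with WTK), 0.24, 0.23 and -0.02 (LepK with IgGK) and -0.05, 0.17 and -0.13 (LepL with IgGL). In none of these comparisons did every library correlate best with its own number. IgGK replicate 1, LepK replicates 1 and 2 and LepL replicate 2 did, and the others did not. With the replicate number as a block, 0 members were called lower in LepL against IgGL, where 4 of all genes were called and 4815 had an unadjusted p under 0.05. The block gave 2 members lower in LepK against WTK, where 4400 of all 19593 genes were called. It gave 2 higher effects in lung, where 1257 of all 21488 genes were called in either direction.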

Other observations

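Genes that ADAM proteins act on or depend on were read from lists chosen with earlier results known. Of 13 shed ligands tested in kidney, 8 were called higher in IgGK than in WTK and 0 lower. With LepAb, 2 were called lower than in IgGK, namely Csf1 (log2 fold change -0.64 ± 0.13, adjusted p = 0.00454), a growth factor of macrophages, and the chemokine Cxcl16 (-0.55 ± 0.09, adjusted p = 0.00118). The shed decoy receptor Il1r2, listed with them but not counted here, rose in IgGK (4.22 ± 0.67, adjusted p = 1.62e-04) and fell with LepAb in kidney (-2.29 ± 0.56, adjusted p = 0.0124). Tnf, the classical cargo of ADAM17, rose in IgGK (3.08 ± 0.52, adjusted p = 2.50e-04) and was not called with LepAb in kidney (-0.50 ± 0.44, adjusted p = 0.472) or lung (0.35 ± 0.32, adjusted p = 0.512). In lung 1 of 14 was called lower, Ereg (-2.71 ± 0.48, adjusted p = 0.03301), a ligand of the epidermal growth factor receptor. Of 20 shed receptors and adhesion molecules, 13 rose in IgGK and 7 were called lower with LepAb in kidney. These included the tubular injury marker Havcr1 (-1.16 ± 0.15, adjusted p = 5.06e-04), the receptor tyrosine kinase Axl (-0.75 ± 0.11, adjusted p = 9.65e-04) and the tumor necrosis factor receptor Tnfrsf1b (-1.04 ± 0.15, adjusted p = 7.55e-04). In lung Tnfrsf1a alone was called lower of 19 tested (-0.59 ± 0.12, adjusted p = 0.0388).

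Proprotein convertases remove the inhibitory prodomain of ADAM and ADAMTS proteins. Of the 4 tested 3 fell in IgGK, Furin (-0.78 ± 0.07, adjusted p = 1.34e-06), Pcsk5 (-0.75 ± 0.08, adjusted p = 6.30e-06) and Pcsk6 (-1.15 ± 0.12, adjusted p = 6.15e-06), while most called ADAM and ADAMTS genes rose. With LepAb, Pcsk6 rose in kidney (0.88 ± 0.12, adjusted p = 6.31e-04), and in lung Furin (-0.94 ± 0.19, adjusted p = 0.0391) and Pcsk5 (-1.42 ± 0.21, adjusted p = 0.0327) fell. Furin was at 325, 299 and 305 CPM in WTK, 187, 171 and 183 in IgGK and 240.5, 222 and 214 in LepK, and at 235, 357 and 399 in IgGL and 184, 183 and 149 in LepL. The iRhom gene Rhbdf2, whose product carries ADAM17 to the cell surface, rose in IgGK (1.09 ± 0.11, adjusted p = 3.65e-06), as did the ADAM10 partners Tspan15 (0.66 ± 0.11, adjusted p = 1.98e-04) and Tspan17 (1.07 ± 0.16, adjusted p = 8.23e-05). None of these partners was called with LepAb in either organ.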
